A study of Homo sapiens with 16 samples.

Results

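Splicing factors and nuclear RNA-binding proteins were followed in HEK293T cells, a widely used line derived from human embryonic kidney. Members were chosen by gene symbol. Of 38 listed genes, 37 had a transcript counted in both assays, out of 19044 such transcripts, and all 37 were among the 10970 that passed the count filter. The remaining gene, HNRPLL, was counted in Ribo-Seq alone. Symbols could be read for only 1888 of the joined transcripts, and all 37 members lie on chromosomes 1 and 2, so the list samples the splicing machinery and does not cover it.

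The 4 groups were untreated cells, cells given tunicamycin (Tm, 1 µg/ml), cells given Tm plus ISRIB (200 nM) and cells given only ISRIB (200 nM), each drug treatment lasting 1 hr. Tm blocks N-linked glycosylation and causes ER stress, and ISRIB is a small molecule that blocks the effects of eIF2α phosphorylation. Every treatment had 2 biological replicates, a and b. Each lysate was split between Ribo-Seq, which counts ribosome-protected fragments (RPFs), and mRNA-Seq, which gave 16 libraries from 1 cell line. Values below are for RNA from whole cultures, where fewer cells and less RNA per cell cannot be told apart, and every change is relative to the other transcripts because total translation was not measured.

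Splicing removes introns from pre-mRNA in the nucleus. The spliceosome is built from small nuclear ribonucleoproteins (snRNPs), each a small RNA with a ring of Sm proteins and particle-specific proteins. SR proteins, which are phosphorylated by CLK kinases, and hnRNPs bind the pre-mRNA and influence which sites are used, and the exon junction complex marks the mRNA after splicing. Under ER stress, the kinase PERK phosphorylates eIF2α, which lowers initiation on most mRNAs while raising translation of a few, such as the mRNA of the transcription factor ATF4.

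RPF libraries held 3001612 to 11469150 counts on the joined transcripts and mRNA-Seq libraries 8466193 to 24499266. The Tm pair were the shallowest RPF libraries, with 4172745 (a) and 3001612 (b) counts. Results with either Tm replicate left out are given below, while the part of their depth was not tested. Members took 1.39% and 1.44% of RPF counts in the Tm libraries and 1.22 to 1.29% in the other 6. The ISRIB mRNA-Seq replicates stood apart most from each other (HNRNPA3 mRNA was at 190 and 348 CPM). As a check of the treatment, ATF4 RPFs were at 81.7 and 61.6 CPM in untreated cells, 455 and 464 in Tm and 53.7 and 66.3 in Tm + ISRIB.

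The start codon regions are shown for the 6 members with the largest called RPF rises in Tm. They are also shown for YBX1, the member whose translational efficiency fell. The counted length was shorter than the coding sequence in GENCODE v29, as for CLK1 with 465 codons counted and 1455 bases annotated. Each run has 12 bases before the ATG, which is in capitals, and 12 after it, 5′ to 3′ on the transcript strand, from GENCODE v29 on GRCh38. In that annotation the CLK1 transcript spans chr2:200853009-200864699 (minus strand), PPIG chr2:169584340-169641406 (plus), SNRPG chr2:70281362-70293771 (minus), THRAP3 chr1:36224416-36305357 (plus), DHX9 chr1:182839369-182887751 (plus), SFPQ chr1:35182932-35193148 (minus) and YBX1 chr1:42682427-42702349 (plus).
CLK1: ttgtccaggacgATGagacactcaaag
PPIG: agtattggagccATGggaataaaggtt
SNRPG: ggagtatacaccATGagcaaagctcac
THRAP3: ctctcttcagagATGtcaaaaacaaac
DHX9: gacacttgaatcATGggtgacgttaaa
SFPQ: ttgaccacagacATGtctcgggatcgg
YBX1: atcaccgcaaccATGagcagcgaggcc
A purine 3 bases before the ATG was found in 34 of the 37 members (91.9%) and in 83.9% of the other 1767 tested transcripts with a symbol and an annotation. KHDRBS1, RBM15 and SNRNP27 lacked it. An ATG upstream in the 5′ UTR was found in 13 members (35.1%), against 52.0% of the others. SNRNP27 had 14 such ATGs, RBM15 had 9 and SF3A3 had 8. Of the genes shown, PPIG, SNRPG and THRAP3 had 1 each, while CLK1, DHX9, SFPQ and YBX1 had 0. The median 5′ UTR was 186 bases in members and 200 in the others. Where several GENCODE transcripts matched, annotated principal ones were preferred, and the longest among equals. UTR lengths and upstream ATG counts depend on that choice, and the 5′ UTR of the counted transcript itself was not checked.

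Members were abundant transcripts in untreated cells. Their median RPF level, per kilobase of coding sequence counted, was 166 CPM, against 20.9 for all tested transcripts, and their median mRNA level was 155 against 22.9. YBX1, a cold shock domain protein that binds mRNA and pre-mRNA, had the highest RPF level (938 and 984 CPM per kb in a and b), and RNPC3, a protein of the minor spliceosome, the lowest (7.54 and 6.34).

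RPF levels relative to mRNA varied widely among members. The log2 ratio of RPF to mRNA CPM in untreated cells had a median of -0.07 in members and 0.03 in all tested transcripts. SF3B4, a subunit of the U2 snRNP, had the highest ratio, with log2 values of 2.04 and 2.25 in a and b. Next came MAGOH, an exon junction complex core protein, at 1.66 and 1.74, and HNRNPA3, an hnRNP of the A/B family, at 1.37 and 1.59. These 3 did not overlap with one another. CLK1, a kinase of SR proteins, had the lowest ratio, at -1.67 and -1.88. RNPC3 at -1.52 and -1.83 and RBM15, an adaptor of the RNA methyltransferase complex, at -1.68 and -1.61 overlapped with CLK1. The ratio also carries how each assay counts a transcript, so it is a description of levels.

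**Figure D1:**
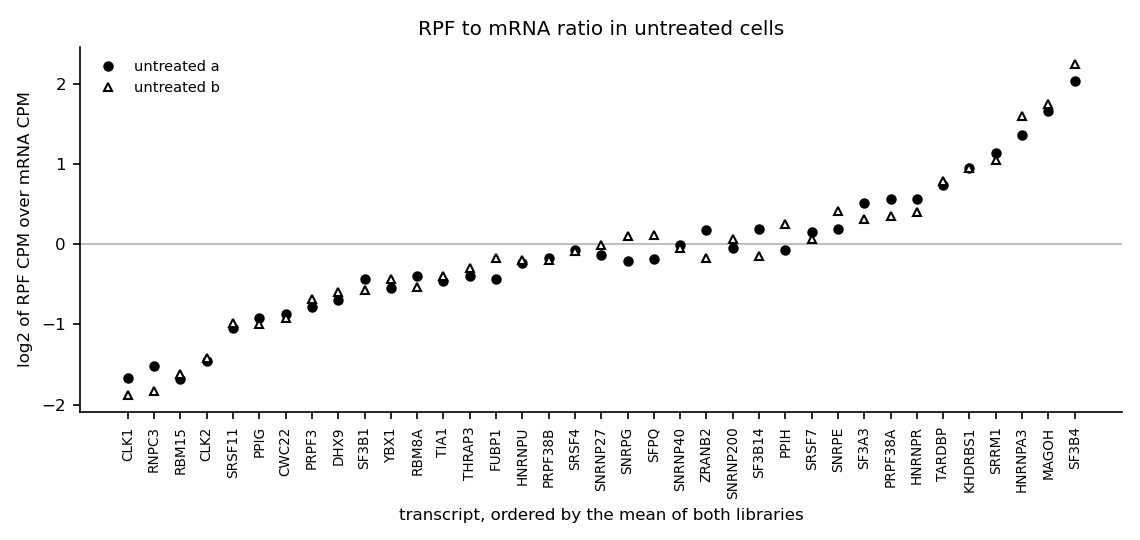
Log2 ratio of RPF to mRNA CPM in untreated cells (y axis) for the 37 transcripts (x axis), with a circle for replicate a and a triangle for replicate b. The ratio runs from CLK1 at the left (-1.67 and -1.88) to SF3B4 at the right (2.04 and 2.25).

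The comparison of Tm with untreated cells asks how ER stress changed ribosome occupancy of these mRNAs. RPFs rose on 8 members and fell on 0 of the 37 at a false discovery rate (FDR) of 0.1 (edgeR's quasi-likelihood test, Benjamini-Hochberg adjustment over all 10970 transcripts). Among all tested transcripts, 6.33% rose and 7.21% fell. With no filter on low counts 9 members rose and 1 fell, and with the replicate letter as a block 8 rose and 1 fell. Called falls also appeared without untreated replicate a. The median standard error (SE) was 0.09 in members and 0.14 in all tested transcripts, so an equal change is called more readily in members. The log2 fold change was above 0 for 32 members (86.5%) and for 48.6% of all tested transcripts. Its median was 0.12 against -0.01 over all tested transcripts. Both Tm libraries were above both untreated ones for 20 members and below for 4, where 24.4% and 26.9% of all transcripts were. None of the members changed more than 2-fold, as 0.465% of all tested transcripts did, and the largest rise was 1.42-fold. The count fell to 3 without Tm replicate b and to 5 without Tm replicate a, and the median then was 0.07 and 0.18.

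**Figure D2:**
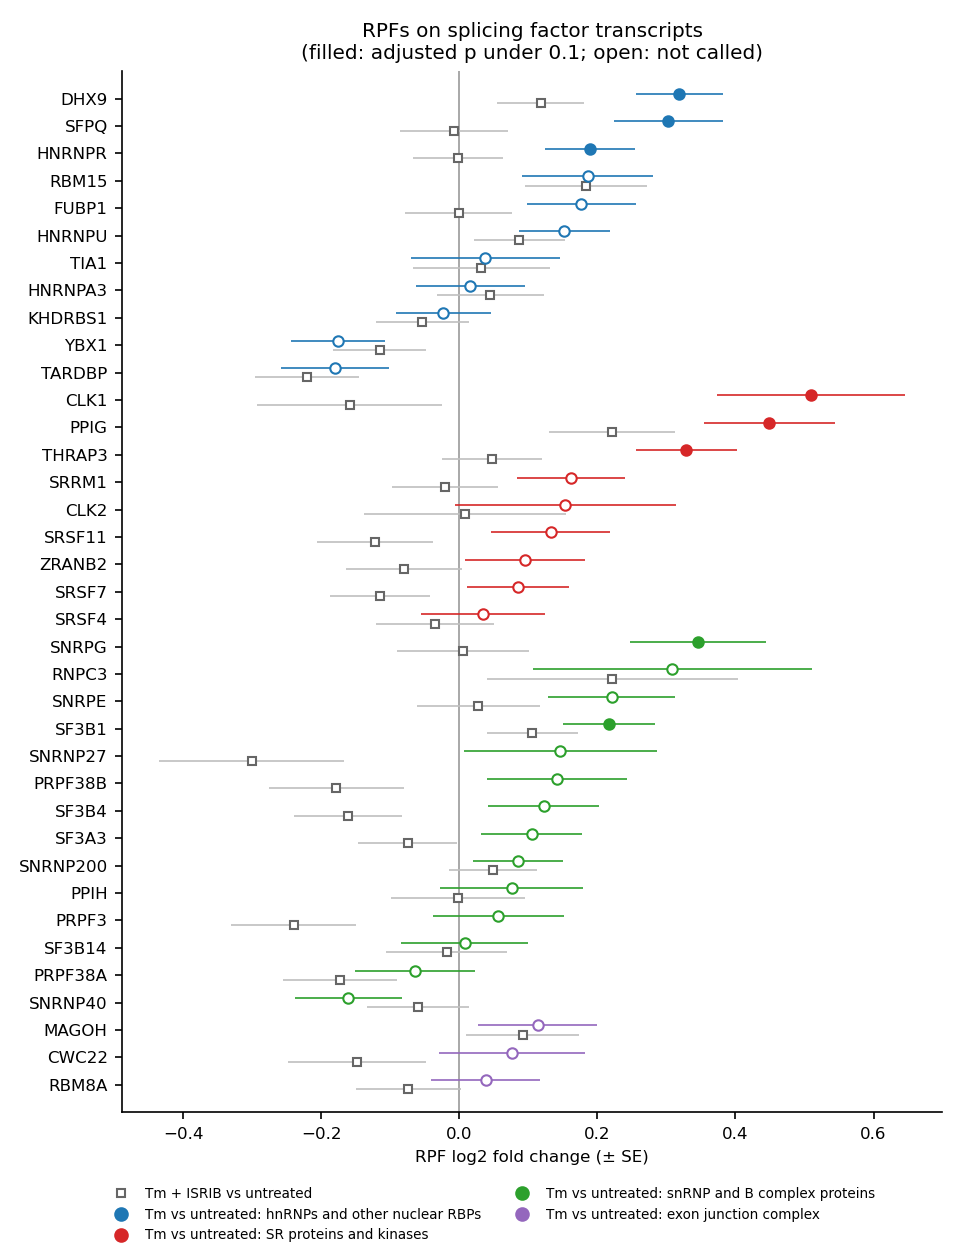
RPF log2 fold change (x axis, ± SE) of each member in Tm vs untreated (circles, coloured by role, filled where the adjusted p was under 0.1) and in Tm + ISRIB vs untreated (grey squares). Circles lie above 0 for 32 of 37 members, and 8 are filled, while the squares have a median of -0.02.

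The counts by role that follow can be set beside all tested transcripts. Of these, 6.33% rose, 13.5% were called in either direction and 48.6% had log2 fold changes above 0. Among the SR proteins, SR-related proteins and their kinases, 3 of 9 rose and all 9 had log2 fold changes above 0. RPF levels of CLK1 were 29.2 and 28.7 CPM in untreated cells (a and b), 43.3 and 38.6 in Tm, 22.5 and 29.1 in Tm + ISRIB and 32.6 and 28.6 in ISRIB. Both Tm libraries lay above the 6 others. The log2 fold change in Tm was 0.51 (SE 0.14, adjusted p = 0.0168), and the call was lost without Tm replicate a (the range of adjusted p over 15 alternatives was 0.00548 to 0.219).
RPF levels of PPIG, a nuclear cyclophilin with an SR-rich tail, were 94.2 and 97.1 CPM in untreated cells, 120 and 143 in Tm, 104 and 119 in Tm + ISRIB and 104 and 104 in ISRIB. Tm libraries were again the highest, and Tm + ISRIB was above untreated in both libraries. The log2 fold change in Tm was 0.45 (SE 0.09, adjusted p = 0.00236). THRAP3, an SR-related protein of spliceosomes and of mRNA export, was at 294 and 305 CPM in untreated cells and at 367 and 387 in Tm, with 292 and 327 in Tm + ISRIB and 324 and 333 in ISRIB. It rose by 0.33 on the log2 scale (SE 0.07, adjusted p = 0.00383), with no overlap between Tm and the other treatments. SRSF4 had the smallest change of this group (0.03, SE 0.09, adjusted p = 0.857), and its sign turned when untreated replicate a or Tm replicate b was left out.

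Among hnRNPs and other nuclear RNA-binding proteins, 3 of 11 rose, and 8 had log2 fold changes above 0. DHX9, an RNA helicase, had RPF levels of 931 and 994 CPM in untreated cells, 1204 and 1197 in Tm, 1019 and 1069 in Tm + ISRIB and 1039.8 and 1008 in ISRIB. It rose by 0.32 (SE 0.06, adjusted p = 0.00131) in Tm. SFPQ, a paraspeckle protein that takes part in splicing, was at 698 and 885 CPM in untreated cells, 935 and 1021 in Tm, 792 and 784 in Tm + ISRIB and 851 and 877 in ISRIB. Tm stood above the other libraries, although the untreated replicates of SFPQ were far apart, and the rise was 0.30 (SE 0.08, adjusted p = 0.0142). HNRNPR was at 756 and 735 CPM in untreated cells and at 813 and 889 in Tm, and rose by 0.19 (SE 0.07, adjusted p = 0.0683). At the other end, TARDBP, which encodes TDP-43, was at 255 and 295 CPM in untreated cells and at 251 and 235 in Tm, a log2 fold change of -0.18 (SE 0.08, adjusted p = 0.158). YBX1 was at 859 and 901 CPM in untreated cells and at 742 and 817 in Tm (-0.18, SE 0.07, adjusted p = 0.109). Neither passed the test, although neither overlapped with untreated cells.

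HNRPLL was tested in Ribo-Seq alone, over 12242 transcripts, and it was the listed gene that fell. Its separate fit was not repeated under the alternatives used for the other members. This hnRNP, known for regulating splicing in lymphocytes, had RPF levels of 72.4 and 73.1 CPM in untreated cells, 57.7 and 60.3 in Tm, 65.8 and 69.4 in Tm + ISRIB and 72.9 and 72.2 in ISRIB. The log2 fold change in Tm was -0.30 (SE 0.10, adjusted p = 0.0515), from 608 and 859 reads in untreated cells and 261 and 194 in Tm. In Tm + ISRIB against Tm it was 0.20 (SE 0.10, adjusted p = 0.215).

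Among the spliceosomal snRNP and B complex proteins, 2 of 14 rose and 12 had log2 fold changes above 0. SNRPG, an Sm ring protein, was at 103 and 135 CPM of RPFs in untreated cells, 152 and 153 in Tm, 117 and 123 in Tm + ISRIB and 133 and 122 in ISRIB. Its rise of 0.35 (SE 0.10, adjusted p = 0.0245) was called together with a rise of its mRNA, given below. SF3B1, the U2 snRNP protein at the branch site, was at 772 and 719 CPM in untreated cells and 851 and 883 in Tm, a rise of 0.22 (SE 0.07, adjusted p = 0.0381). The lowest change was that of SNRNP40, a U5 snRNP protein, at 203 and 203 CPM in untreated cells and 175 and 189 in Tm (-0.16, SE 0.08, adjusted p = 0.202).
In the exon junction complex and its loading, 0 of 3 passed the test. MAGOH was at 143 and 142 CPM in untreated cells and 151 and 158 in Tm (0.11, SE 0.09), and RBM8A, its partner in the core complex, at 205 and 215 and at 219 and 211 (0.04, SE 0.08).

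**Figure D3:**
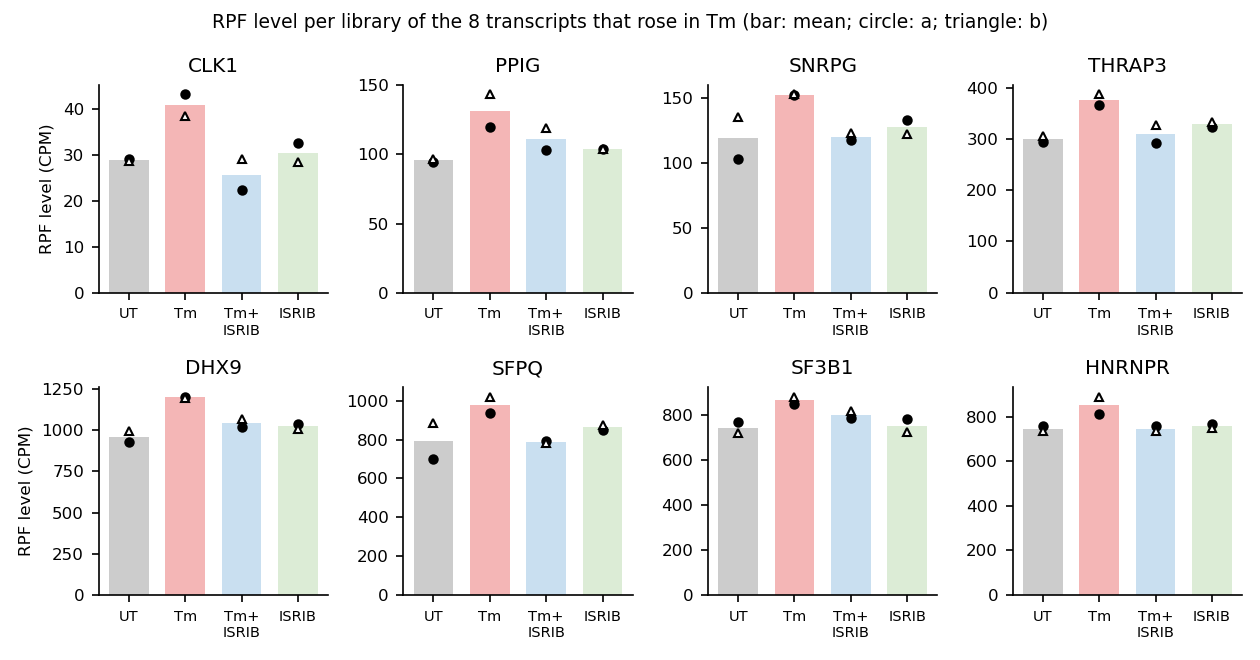
RPF level in CPM (y axis, from 0) in each treatment (x axis; UT, untreated) for the 8 members that rose in Tm, with bars for the mean of both replicates, circles for a and triangles for b. In every panel both Tm libraries lie above both untreated ones, as for CLK1 at 43.3 and 38.6 against 29.2 and 28.7.

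Of the 8 calls, those of DHX9 and THRAP3 held under all 15 alternatives. PPIG lost its call without Tm replicate b, and SFPQ without that library or untreated replicate a. SNRPG lost it without untreated replicate a or either Tm replicate, SF3B1 without untreated replicate b or either Tm replicate, and HNRNPR without untreated replicate b, without Tm replicate b and with only the libraries compared. In GENCODE v29, 15 of the 37 members have named pseudogenes (40.5%, against 13.0% of the other named transcripts). SNRPG has 20, HNRNPA3 16, YBX1 10 and SNRPE 9, and counts for such genes are uncertain where reads match a copy.

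In mRNA, the log2 fold change in Tm was above 0 for 19 of the 37 members, where it was for 32 in RPFs. It was above 0 in mRNA for 49.5% of all tested transcripts. Of the 37 members, 1 rose and 3 fell, where 6.57% and 4.45% of all tested transcripts did, and the median log2 fold change was 0.03 against 0.00. HNRNPA3 mRNA was at 298 and 324 CPM in untreated cells, 175 and 170 in Tm, 184 and 192 in Tm + ISRIB and 190 and 348 in ISRIB. It fell by 0.85 on the log2 scale in Tm (SE 0.20, adjusted p = 0.0501), while its RPFs, at 770 and 979 CPM in untreated cells and 916 and 852 in Tm, had a log2 fold change of 0.02 (SE 0.08). SRRM1, an SR-related coactivator of splicing, was at 157 and 156 CPM of mRNA in untreated cells and 106 and 104 in Tm and fell by 0.57 (SE 0.17, adjusted p = 0.0807). KHDRBS1, the RNA-binding protein Sam68, was at 277 and 278 CPM of mRNA in untreated cells and 206 and 200 in Tm, a fall of 0.45 (SE 0.10, adjusted p = 0.0413). In each of these the Tm and untreated libraries did not overlap. SNRPG mRNA was at 119 and 125 CPM in untreated cells and 146 and 153 in Tm, a rise of 0.29 (SE 0.09, adjusted p = 0.0852). For DHX9, THRAP3, SF3B1 and PPIG, which had called RPF rises, both Tm libraries were also above both untreated ones in mRNA. These mRNA changes were not called (DHX9 at 1505 and 1501 CPM, then 1733 and 1674, THRAP3 at 386 and 375, then 429 and 430). Of the other members with such rises, mRNA of HNRNPR and CLK1 overlapped between Tm and untreated cells, and that of SFPQ was lower in Tm. The called changes of mRNA did not hold when any untreated or Tm replicate was left out. More members were called without either ISRIB replicate. The number of calls over all tested transcripts moved the same way. With a replicate left out, the median of the members ranged from -0.05 to 0.06.

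Translational efficiency is the change in RPFs relative to the change in mRNA, tested as the interaction of treatment and assay over the 16 libraries. In Tm it rose for 9 members and fell for 1, where 7.2% and 8.71% of all tested transcripts did, and the median was 0.14 against 0.00. Because each lysate gave both libraries, the lysate was also used as a block, with equal letters taken to mark the same lysate. This gave 8 and 1. In 3 of the 9, the rise went with a called fall of mRNA while RPFs were not called. These were HNRNPA3, at 0.87 (SE 0.23, adjusted p = 0.0203), SRRM1, at 0.74 (SE 0.19, adjusted p = 0.0198), and KHDRBS1, at 0.43 (SE 0.13, adjusted p = 0.0350).
CLK1 and SFPQ also had a called rise of RPFs. The other members with such a rise, among them DHX9 and THRAP3, were not called in efficiency. CLK1 mRNA was at 92.6 and 106 CPM in untreated cells and 95.6 and 95.5 in Tm, and its efficiency rose by 0.56 (SE 0.16, adjusted p = 0.0259). SFPQ mRNA was at 796 and 814 CPM in untreated cells and 756 and 762 in Tm, and its efficiency rose by 0.39 (SE 0.13, adjusted p = 0.0615). For SF3B4 (0.41, SE 0.15, adjusted p = 0.0820) and HNRNPU, a nuclear scaffold hnRNP (0.31, SE 0.12, adjusted p = 0.0964), neither RPFs nor mRNA were called alone. RBM15 (0.29, SE 0.10) and RNPC3 (0.57, SE 0.21) were called at an adjusted p of 0.0816 and 0.0820 but not with the lysate block, at 0.119 and 0.118. RNPC3 rests on 90 and 106 RPF reads in untreated cells and 59 and 35 in Tm. SNRNP27, a protein of the U4/U6.U5 tri-snRNP, was called with the block (adjusted p = 0.0624) and not without it (0.47, SE 0.20, adjusted p = 0.141). YBX1 was the member that fell, by 0.37 (SE 0.14, adjusted p = 0.0939), with mRNA at 1248 and 1212 CPM in untreated cells and 1366 and 1449 in Tm. Its call was lost with other library scaling (DESeq2 size factors or total counts). The count of 10 fell to 1 without Tm replicate a or without Tm replicate b, to 2 without untreated replicate b and to 3 without untreated replicate a. It was 6 without Tm + ISRIB replicate a.

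**Figure D4:**
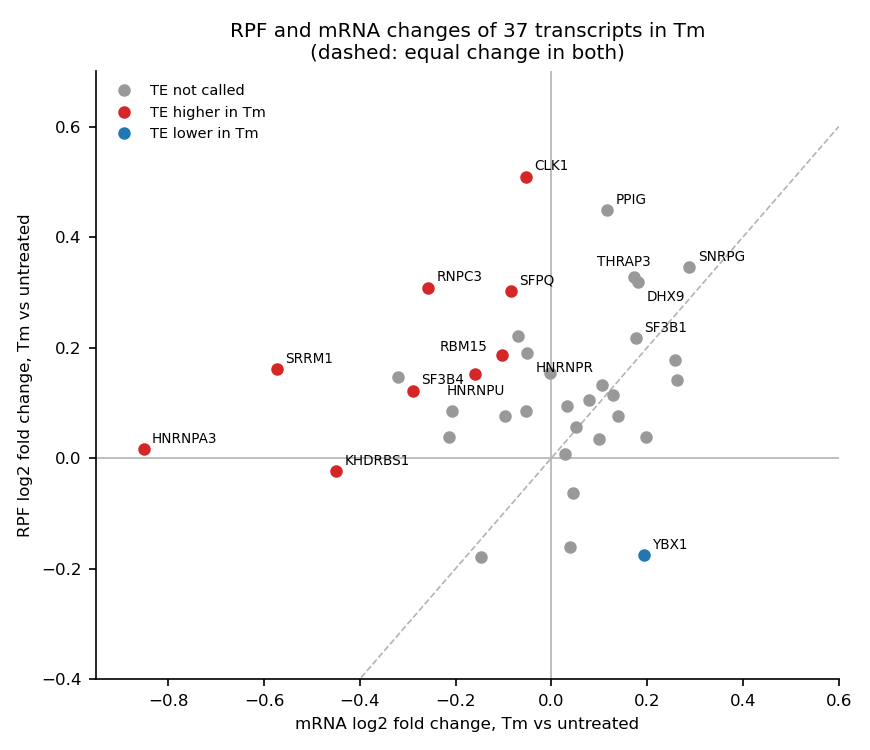
Log2 fold change of RPFs (y axis) against that of mRNA (x axis) in Tm vs untreated for the 37 members, with the dashed line where both are equal. Red points (9) have a called rise of translational efficiency and the blue point (YBX1) a called fall, and HNRNPA3 lies farthest left at -0.85 for mRNA and 0.02 for RPFs.

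Treatment with Tm and ISRIB together was compared with untreated cells to see what remained of these changes. In RPFs, 0 members were called in either direction by edgeR (2.65% of all tested transcripts were) and 0 by DESeq2. By edgeR, 7 members and 1453 of all 10970 tested transcripts had an unadjusted p under 0.05. The median log2 fold change was -0.02 against 0.00 over all tested transcripts, and the members ranged from -0.30 (SNRNP27, SE 0.13) to 0.22 (RNPC3, SE 0.18). Without untreated replicate a, 3 members were called, and without untreated replicate b, 1. In mRNA, 2 rose and 3 fell, where 8.27% and 5.93% of all tested transcripts did. The falls were those of HNRNPA3, by 0.72 (SE 0.20, adjusted p = 0.0580), KHDRBS1, by 0.30 (SE 0.10, adjusted p = 0.0856), and HNRNPU, by 0.26 (SE 0.09, adjusted p = 0.0961). SNRPG mRNA rose by 0.30 (SE 0.08, adjusted p = 0.0602), and that of TIA1, a protein of stress granules and of splicing, rose by 0.26 (SE 0.07, adjusted p = 0.0618). Efficiency rose for 3 members and fell for 0, where 3.96% and 5.0% of all tested transcripts did. HNRNPA3 rose by 0.77 (SE 0.23, adjusted p = 0.0528), HNRNPU by 0.35 (SE 0.12, adjusted p = 0.0899) and RBM15 by 0.30 (SE 0.10, adjusted p = 0.0858), the last not with the lysate block (adjusted p = 0.122). These mRNA and efficiency calls were all lost when any untreated, Tm or Tm + ISRIB replicate was left out. Without either ISRIB replicate, more members were called in both, as were more of all tested transcripts.

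ISRIB alone gave 0 called members in RPFs, mRNA and efficiency, where 0.0182%, 1.15% and 0.191% of all tested transcripts were called by edgeR. The members with an unadjusted p under 0.05 were 1, 4 and 3, against 471, 1584 and 975 of all 10970 tested transcripts. DESeq2 called 0, 1 and 0 members. RPF log2 fold changes ranged from -0.21 to 0.15 with a median of 0.03 (median SE 0.08), against a median of 0.00 over all tested transcripts. Some members were called in mRNA when either ISRIB replicate was left out, and more of all tested transcripts were called then as well.

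Tm + ISRIB was also compared with Tm directly. This comparison shares the Tm libraries with that of Tm and untreated cells, so both are given side by side and not as independent results. RPFs fell on 12 members and rose on 0, where 8.2% and 9.53% of all tested transcripts did. The median SE was again lower in members (0.09) than in all tested transcripts (0.15), so equal changes are called more readily in members. The median log2 fold change was -0.17 against 0.00, and 34 of 37 were below 0, as were 49.4% of all tested transcripts. Both Tm + ISRIB libraries lay below both Tm libraries for 21 members (27.2% of all tested transcripts) and above for 1 (28.2%). Leaving out Tm replicate b or Tm + ISRIB replicate a reduced the count to 2, and the median was then -0.11 in either case. The DESeq2 Wald test called 7.

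By role, 4 of 9 SR proteins and kinases, 5 of 14 snRNP and B complex proteins, 3 of 11 hnRNPs and related proteins and 0 of 3 exon junction proteins fell. Of all tested transcripts, 8.2% fell. CLK1 fell by 0.67 (SE 0.14, adjusted p = 0.00239) and held its call under all 15 alternatives. SFPQ fell by 0.31 (SE 0.08, adjusted p = 0.00956), THRAP3 by 0.28 (SE 0.07, adjusted p = 0.0120), SNRPG by 0.34 (SE 0.10, adjusted p = 0.0256), DHX9 by 0.20 (SE 0.06, adjusted p = 0.0369) and HNRNPR by 0.19 (SE 0.07, adjusted p = 0.0565). For PPIG and SF3B1, which had also risen in Tm, the log2 fold changes of -0.23 and -0.11 did not pass.
The other 6 members that fell had not been called in Tm. SNRNP27 was at 33.9 and 40.9 CPM in untreated cells, 38.1 and 46.1 in Tm and 29.7 and 31.4 in Tm + ISRIB, a fall of 0.45 (SE 0.15, adjusted p = 0.0493) against Tm. PRPF38B, a paralog of the B complex protein PRPF38A, was at 91.9 and 98.0 CPM in Tm and 69.0 and 82.4 in Tm + ISRIB (-0.32, SE 0.11, adjusted p = 0.0469). PRPF3, a U4/U6 snRNP protein, was at 92.6 and 107 CPM in Tm and 82.4 and 78.9 in Tm + ISRIB (-0.30, SE 0.10, adjusted p = 0.0485). For SNRNP27 and PRPF3 the Tm + ISRIB libraries were also below both untreated ones (90.5 and 99.5 CPM for PRPF3), while PRPF38B overlapped with untreated cells (80.5 and 90.7 CPM). SF3B4 was at 229 and 223 CPM in Tm and 174 and 198 in Tm + ISRIB (-0.28, SE 0.08, adjusted p = 0.0225). The SR proteins SRSF11 (167 and 203 CPM in Tm, 149.7 and 158 in Tm + ISRIB) and SRSF7 (390.0 and 442, then 349.9 and 373) fell by 0.25 and 0.20 (SE 0.09 and 0.07, adjusted p = 0.0588 and 0.0787). Apart from CLK1, all of these calls but that of SF3B4 were lost without Tm replicate b, and all but that of SFPQ without Tm + ISRIB replicate a. The difference between the Tm effects with and without ISRIB was called as lower for 6 members and higher for 0, where 3.1% and 3.8% of all tested transcripts were, and the 6 were CLK1, SFPQ, SNRPG, THRAP3, FUBP1 and DHX9.

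In mRNA, 0 members and 0.0% of all tested transcripts were called by edgeR between Tm + ISRIB and Tm, and DESeq2 called 0 members. By edgeR, 1 member and 198 of all 10970 tested transcripts had an unadjusted p under 0.05. Efficiency fell for 2 members and rose for 0, where 2.42% and 3.68% of all tested transcripts did. CLK1 fell by 0.63 (SE 0.16, adjusted p = 0.0385) and SF3B4 by 0.48 (SE 0.15, adjusted p = 0.0796). With the lysate block SNRNP27 was called as well (-0.56, SE 0.20, adjusted p = 0.148 without the block and 0.0754 with it). The count was 0 without Tm replicate a, Tm replicate b or Tm + ISRIB replicate a, 1 without untreated replicate a or Tm + ISRIB replicate b and 4 without ISRIB replicate a or b.

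**Figure D5:**
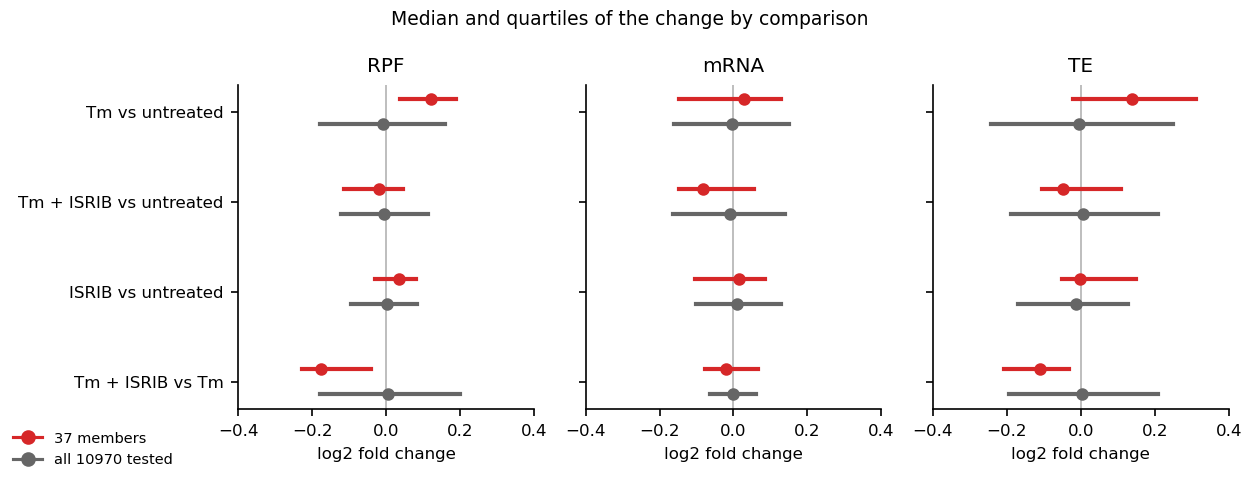
Median (point) and quartiles (bar) of the log2 fold change (x axis) of the 37 members (red) and of all 10970 tested transcripts (grey) for RPFs, mRNA and translational efficiency (TE) in 4 comparisons (y axis). The RPF median of the members is 0.12 in Tm vs untreated and -0.17 in Tm + ISRIB vs Tm, and between -0.02 and 0.03 in Tm + ISRIB and in ISRIB vs untreated.

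Other genes of pre-mRNA processing were taken from a list of 27, of which 26 had a transcript in both assays. In Tm, RPFs rose on 3 and fell on 0 of them, where 6.33% and 7.21% of all tested transcripts did. In either direction, 11.5% of the 26 and 13.5% of all tested transcripts were called. The median log2 fold change was 0.09 against -0.01. CHTOP, an RNA-binding protein of the mRNA export complex, was at 104 and 121 CPM in untreated cells, 132 and 147 in Tm and 99.6 and 111 in Tm + ISRIB, a rise of 0.30 in Tm (SE 0.09, adjusted p = 0.0405). CIR1, which binds splicing regulators and a transcriptional corepressor, was at 29.7 and 32.2, 37.4 and 44.4 and 25.4 and 31.3 CPM in the same order and rose by 0.39 (SE 0.14, adjusted p = 0.0731). WDR33, a subunit of the polyadenylation factor CPSF, was at 85.2 and 95.9, 106 and 113 and 87.9 and 93.0 CPM and rose by 0.27 (SE 0.09, adjusted p = 0.0656). Between Tm + ISRIB and Tm, RPFs of 4 of the 26 fell and 1 rose, where 8.2% and 9.53% of all tested transcripts did. In either direction this was 19.2% against 17.7%. The median log2 fold change was -0.13 against 0.00. These genes come from the same libraries as the members.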

How the data were processed

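The authors deposited raw read counts per UCSC transcript (coding sequence only), 1 file per library, without normalization. Per the labels, the submitters' processing notes name CASAVA 1.8, Bowtie 1.0.0 and TopHat2 2.0.7 and 2.0.10. Transcripts were joined between assays by identifier without version and equal coding length. Symbols came from a table of the study that could be read in part, and per gene the transcript with the most mRNA-Seq counts was used. Members, role groups and lists were chosen with earlier results of these data known.

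Transcripts kept by filterByExpr (minimum count 10) in both assays were fitted in edgeR 4.0.16 (R 4.3.3) with TMM, glmQLFit and glmQLFTest, RPFs and mRNA over the 8 libraries of their assay and translational efficiency over all 16, with Benjamini-Hochberg adjustment and an FDR of 0.1. SE is the absolute log2 fold change over the root of F. CPM are TMM-scaled. Alternatives included DESeq2 1.42.0, other scaling and filters, blocks, and leaving out each lysate, where a lone sample was assumed to vary like the other groups. With 2 libraries against 2 an exact permutation test cannot go below a p of 0.33. The fits were tested on simulated data. PCR copies were counted as separate fragments.

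Named were members called in RPFs or efficiency, the extremes of each role group in Tm, the 3 highest and 3 lowest ratios of RPF to mRNA and listed pathway genes called in RPFs in Tm. TIA1, YBX1's level and the values of SNRNP27's efficiency were added after they were seen. Positions and sequences are from GENCODE v29 on GRCh38, matched by symbol and by coding length at a fixed offset from the counted length. Figures used matplotlib 3.10.9 in Python 3.11.15.

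Whether replicate letters pair the samples was checked by the correlation, across transcripts, of deviations from treatment means. It was -0.16 to 0.11, which does not pair them. By the methods each lysate gave an RPF and an mRNA library. Equal letters were taken to mark the same lysate, which the correlation of -0.05 to 0.04 between them does not show.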

Additional observations from a re-analysis of the deposited data

Results flagged for a closer look

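For 6 members, the effect of Tm on RPFs differed between cells with and without ISRIB, by edgeR's test of the difference itself (Benjamini-Hochberg adjustment over all 10970 transcripts). All 6 differences were negative, and 3.1% of all tested transcripts had a called negative difference. Over the 37 members the median difference was -0.19 against 0.01. The values below are log2 differences in RPF level, first Tm minus untreated and then Tm + ISRIB minus ISRIB.

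For CLK1 they were 0.50 and -0.25, with a fitted difference of -0.74 (SE 0.20, adjusted p = 0.0317). For SFPQ they were 0.31 and -0.13 (difference -0.44, SE 0.11, adjusted p = 0.0247), and for SNRPG 0.37 and -0.09 (difference -0.43, SE 0.14, adjusted p = 0.0809). For THRAP3 they were 0.33 and -0.09 (difference -0.41, SE 0.10, adjusted p = 0.0217), and for DHX9 0.32 and 0.03 (difference -0.29, SE 0.09, adjusted p = 0.0645). FUBP1, a single-strand nucleic acid-binding protein, had 0.18 and -0.16 (difference -0.33, SE 0.11, adjusted p = 0.0963). Its RPFs were at 284 and 321 CPM in untreated cells, 329 and 357 in Tm, 281 and 324 in Tm + ISRIB and 342 and 331 in ISRIB.

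The number of members with a called difference was 1 without Tm replicate b, Tm + ISRIB replicate a or ISRIB replicate b, 2 without ISRIB replicate a, 4 without untreated replicate a and 11 without untreated replicate b. The 6 differences were not equally stable. Over 14 alternatives the call was kept in 12 for SFPQ, 11 for THRAP3, 10 for CLK1, 9 for DHX9, 8 for FUBP1 and 6 for SNRPG. The DESeq2 Wald test did not call CLK1, FUBP1 or SNRPG. HNRPLL, tested in Ribo-Seq alone, had a difference of 0.20 (SE 0.14, adjusted p = 0.460).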

How the results depend on the processing

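Over all alternatives, 557 of 767 values of called members stayed past the threshold, 210 did not and 0 changed sign. Leaving out Tm replicate b ended the most calls, 43 of 50. Among named members that were not called, SRSF4 turned in Tm to -0.062 without untreated replicate a and -0.071 without Tm replicate b, the lowest of its values with a replicate left out, and the highest was 0.148.

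When each replicate was left out in turn, the members called in RPFs ranged from 3 to 10 in Tm, 0 to 3 in Tm + ISRIB and 0 to 1 in ISRIB against untreated cells, 2 to 17 in Tm + ISRIB against Tm and 1 to 11 for the difference between Tm effects. In mRNA they ranged from 0 to 16 in Tm, 0 to 13 in Tm + ISRIB and 0 to 7 in ISRIB, and were 0 throughout between Tm + ISRIB and Tm. In efficiency they ranged from 1 to 13 in Tm, 0 to 7 in Tm + ISRIB, 0 to 1 in ISRIB and 0 to 4 between Tm + ISRIB and Tm.

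The DESeq2 Wald test called 7 members in RPFs between Tm + ISRIB and Tm and 3 for the difference between Tm effects, 3 in mRNA in Tm + ISRIB and 1 in ISRIB, and 6 in efficiency in Tm and 1 in Tm + ISRIB. With only the libraries compared, 16 (Tm) and 12 (Tm + ISRIB) were called in mRNA, and 5 in Tm + ISRIB and 7 between Tm + ISRIB and Tm in efficiency. With no filter, 1 was called in efficiency in Tm + ISRIB. Scaling by total counts gave 12 in RPFs and 15 in efficiency in Tm, with medians of 0.18 and 0.23. For the mRNA median in Tm it gave -0.01 in place of 0.03. The number of calls over all tested transcripts also changed with the replicate left out and with the test used, so such changes are not particular to members. The causes were not tested.

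With the replicate letter as a block, 9 members were called in RPFs, 6 in mRNA and 12 in efficiency in Tm, and 0, 5 and 3 in Tm + ISRIB, and the letters did not pair the samples. It ended none of the 50 calls. The crossed block, chosen after seeing the data, gave 4 in mRNA and 2 in efficiency in Tm + ISRIB. The lysate block ended 3 of 15 efficiency calls, all named in the text above. Depth limits the low members most, such as RNPC3, with an SE of 0.20 for its RPF change in Tm.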
